A study of Mus musculus with 9 samples.

Results

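The 8 genes described here encode POU class transcription factors and are Pou2f1, Pou2f2, Pou2f3, Pou3f1, Pou3f2, Pou3f3, Pou4f1 and Pou6f1. They were taken by name from a table of 23361 genes. RNA was measured in cells of mouse skin isolated by a flow cytometric sort; the labels call them melanocyte stem cells, from which the pigment cells of the hair follicle are renewed. There were 9 libraries in 3 groups of 3, named UVB, Active and Quiescent, and all mice were 10 weeks old and carried a genotype given as TBPT, which the labels do not spell out. Every sample had the same treatment entry, which names depilation with a chemical and irradiation with UVB, the medium-wave ultraviolet band, as alternatives, so the labels do not say which group was depilated. The labels do not name the marker used for the sort, and they do not say whether the libraries of a group came from separate mice, so p-values measure the spread between these libraries, which may be technical.

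POU factors bind DNA with a pair of linked domains, a POU-specific domain and a POU homeodomain, and many of them recognise an 8-base element called the octamer. They fall into classes by sequence. Class III factors act in the nervous system and the neural crest, the embryonic source of both melanocytes and Schwann cells: POU3F1 (OCT6) is known for its part in the onset of myelination by Schwann cells, and POU3F2 (BRN2) has been studied in melanoma cells as a factor set against the pigment cell regulator MITF. Class II factors include the widely expressed POU2F1 (OCT1), the B cell factor POU2F2 (OCT2) and POU2F3, a factor of the epidermis and of tuft cells. POU4F1 (BRN3A) is a class IV factor of sensory neurons, and POU6F1 is a class VI factor described in the brain.

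Because POU genes share their DNA-binding domain, their coding sequences were compared with one another before their fragments were read as separate genes. Pou3f1 lies at chr4:124656807-124660655 on the plus strand and Pou3f2 at chr4:22482780-22488366 on the minus strand of GRCm38, and each is a single exon in the GENCODE annotation. The longest coding stretch identical in both was 38 bases, the longest of all pairs among the 8 genes. It is shown because it is the place where fragments of the 2 genes are hardest to tell apart, and it lies at chr4:124658589-124658626 in Pou3f1 and at chr4:22487155-22487192 in Pou3f2.
Pou3f1 and Pou3f2 shared run: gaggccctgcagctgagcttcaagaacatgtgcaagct
The next longest identical run, of 32 bases, was between Pou2f2 and Pou2f3.
Pou2f2 and Pou2f3 shared run: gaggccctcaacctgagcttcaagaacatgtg
No pair of the 8 genes shared 50 identical coding bases in a row, and none of their counts in the table was fractional, as counts divided between similar genes can be.

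The upstream sequences of Pou3f2 and Pou3f3 are shown because these neighbours within class III differed in opposite directions from the Quiescent libraries, as described further on. They are the 250 bases before each gene's start on its own strand, from RefSeq on GRCm38.p6, at chr4:22488367-22488616 on the minus strand for Pou3f2 and at chr1:42695518-42695767 on the plus strand for Pou3f3. Capitals mark each CCAAT, a promoter element, read on the strand shown.
Pou3f2 upstream: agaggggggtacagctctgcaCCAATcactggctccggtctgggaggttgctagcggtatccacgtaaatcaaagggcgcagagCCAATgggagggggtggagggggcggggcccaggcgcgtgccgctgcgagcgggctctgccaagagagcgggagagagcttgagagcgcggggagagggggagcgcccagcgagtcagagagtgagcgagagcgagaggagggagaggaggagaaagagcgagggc
Pou3f3 upstream: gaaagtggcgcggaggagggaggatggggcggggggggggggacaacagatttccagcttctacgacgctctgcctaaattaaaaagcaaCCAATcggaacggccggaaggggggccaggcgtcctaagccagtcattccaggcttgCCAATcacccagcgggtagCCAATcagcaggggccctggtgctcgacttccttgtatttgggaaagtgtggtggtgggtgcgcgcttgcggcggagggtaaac
CCAAT stood 2 times in the Pou3f2 window and 3 times in the Pou3f3 window, and it was chosen for display after these windows had been read. Of 32851 mouse promoter windows of the same length, 33.8% held CCAAT on either strand. The same search of both strands covered 8 windows of 6 of the genes, with no window for Pou2f3 or Pou3f1. CCAAT was in no window of Pou2f1, Pou2f2, Pou4f1 or Pou6f1. The octamer ATGCAAAT, present in 1.6% of all windows, and the MITF elements CACGTG and CATGTG, present in 6.02% and 12.3%, were in none of these 8 windows. The SOX core ACAAAG, present in 16.5% of all windows, was in 1 of the 3 windows of Pou2f1.

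Per unit of transcript length, Pou3f1 was the most abundant POU gene in the UVB and Active libraries, and Pou6f1 was the most abundant in the Quiescent libraries. Mean Pou3f1 levels were 49.4 ± 23.8 FPKM in UVB, 52.8 ± 4.49 FPKM in Active and 0.828 ± 0.962 FPKM in Quiescent (SD, n = 3 each). FPKM are fragments per kilobase of transcript, scaled to library size, as the authors deposited them. Pou6f1 followed with 5.48 ± 0.757 FPKM in UVB, 5.91 ± 0.255 FPKM in Active and 6.85 ± 0.943 FPKM in Quiescent (SD, n = 3 each). Pou2f1 averaged 3.08 FPKM in UVB, 2.24 FPKM in Active and 2.09 FPKM in Quiescent, and Pou2f3 averaged 0.576, 1.14 and 2 FPKM in the same groups. In Quiescent the Pou2f1 and Pou2f3 levels overlapped, so their places in the order of that group were not separated by more than the spread between libraries. Pou2f2, Pou3f2, Pou3f3 and Pou4f1 stayed at or under 0.401 FPKM in every library.

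**Figure D1:**
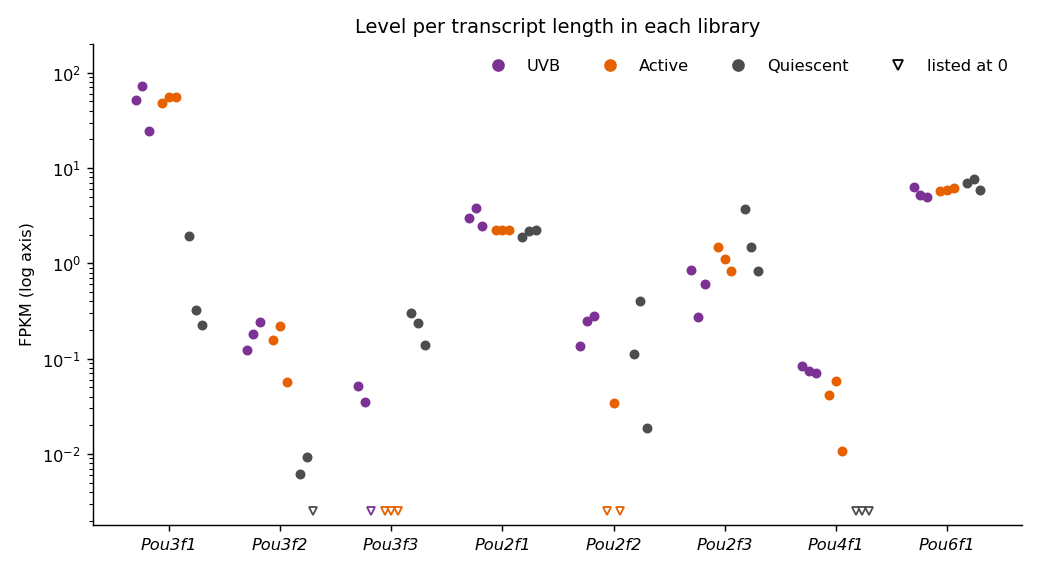
Deposited FPKM of the 8 POU genes on a log axis, with 1 filled point per library coloured by group and open triangles at the foot of the plot for libraries listed at 0. Pou3f1 lies between 24.7 and 72.2 FPKM in the 6 UVB and Active libraries and at or under 1.94 FPKM in the 3 Quiescent libraries, while Pou6f1 stays between 4.94 and 7.74 FPKM in all 9.

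The groups also differed widely outside the POU genes, and the values below bear on every comparison. Library totals ran from 21045070 to 35131778 fragments. The 8 dermal fibroblast markers, collagens among them, took 2.71% to 4.15% of fragments in UVB, 0.611% to 0.755% in Active and 25.4% to 30.4% in Quiescent, while the 12 melanocyte markers took 0.112% to 0.137% in UVB, 0.964% to 1.59% in Active and 0.00578% to 0.0172% in Quiescent. Sox10, which defines the melanocyte and glial lineages, stood at 3.99, 2.21 and 0.295 CPM in Quiescent replicates 1, 2 and 3. Some other melanocyte markers were not near 0 in Quiescent. Mitf, a regulator of pigment genes, stood at 47.3, 53.8 and 64 CPM, and the endothelin receptor gene Ednrb at 20.3, 107 and 13.1 CPM. Dct, a melanin synthesis enzyme, stood at 18.5, 32.2 and 2.07 CPM. Others were low there like Sox10, with Pax3 at 1.09, 1.37 and 0 CPM. Mc1r stood at 0.508, 0.775 and 0.118 CPM, and Slc45a2 at 0.391, 0.536 and 0.118 CPM. CPM are counts per 1e+06 of the scaled library total. The UVB libraries held Xist, the X-inactivation RNA, at 736 to 1040 CPM, against at most 0.435 CPM in Active and 0.469 CPM in Quiescent, so the sex of the mice and the UVB group cannot be told apart. In these sorted bulk cells, fewer cells of a type and less RNA per cell cannot be told apart either.

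Of the 8 POU genes, 6 had enough fragments to be tested, and Pou3f3 and Pou4f1 did not. In UVB against Quiescent, 3 of the 6 were higher and 1 was lower at an adjusted p under 0.05 (edgeR quasi-likelihood test, Benjamini-Hochberg over 15078 genes), where 49% of all tested genes passed, 25.8% higher and 23.2% lower. In Active against Quiescent, 2 were higher and 1 was lower, where 58.3% of all tested genes passed, 29.1% higher and 29.2% lower. In UVB against Active, 2 were higher and 0 were lower, where 24% of all tested genes passed, 14.8% higher and 9.19% lower. The libraries did not overlap for 3 of the 6 in UVB against Quiescent (57.6% of all tested genes), for 3 in Active against Quiescent (66.2%) and for 2 in UVB against Active (46.7%). The median log2 fold change of the 6 was 0.45, -0.05 and 0.13 in these 3 comparisons, beside 0.021, 0.007 and 0.014 over all tested genes. The first and second comparisons share their Quiescent libraries, so their values for a gene are given side by side and are not independent.

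**Figure D2:**
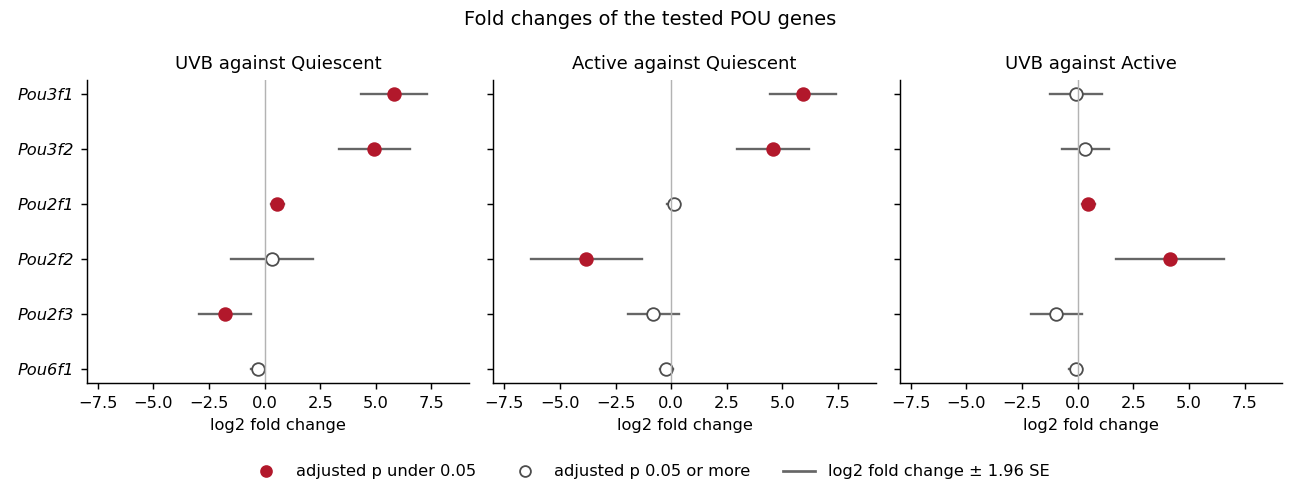
Log2 fold changes of the 6 tested POU genes in the 3 comparisons, with lines for an approximate 95% interval and filled points where the adjusted p was under 0.05. Pou3f1 and Pou3f2 lie between 4.59 and 5.92 in both comparisons with Quiescent and near 0 in UVB against Active, whereas Pou2f2 is lower in Active against Quiescent and higher in UVB against Active.

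Among the 6 tested genes, Pou3f1 had the largest fold change. It stood at 152, 209 and 74.7 CPM in UVB and at 139, 161 and 164 CPM in Active, against 5.63, 0.954 and 0.650 CPM in Quiescent. All 6 UVB and Active libraries lay above all 3 Quiescent libraries, UVB replicate 3 was the lowest of the 6, and Quiescent replicate 1 was the highest of its group. Pou3f1 was 56.7-fold higher in UVB than in Quiescent (log2 fold change 5.82 ± 0.75 SE, edgeR adjusted p = 0.000354) and 60.4-fold higher in Active than in Quiescent (5.92 ± 0.76 SE, edgeR adjusted p = 0.000198). Without Quiescent replicate 1 these folds were 180 and 192, since that library held 144 of the 171 Quiescent fragments. UVB and Active overlapped, with a log2 fold change of -0.09 and an approximate 95% interval of -1.25 to 1.07 (edgeR adjusted p = 0.928). That interval leaves room for a difference of about 2-fold either way. GENCODE places an antisense RNA, Gm2164, over the start of Pou3f1, and it was not analysed here.

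Pou3f2 was scarce in every library but was nearly lacking in Quiescent. It had 25, 33 and 47 fragments in UVB and 32, 38 and 9 in Active, against 1, 1 and 0 in Quiescent. The lowest of the 6 UVB and Active libraries, Active replicate 3, still lay above every Quiescent library. Scaled to library size, Pou3f2 was 30.5-fold higher in UVB than in Quiescent (log2 fold change 4.93 ± 0.82 SE, edgeR adjusted p = 0.00129) and 24-fold higher in Active than in Quiescent (4.59 ± 0.82 SE, edgeR adjusted p = 0.00136). With 2 fragments in the whole Quiescent group, the size of these folds is less certain than their direction. UVB and Active differed by 0.34 ± 0.55 SE on the log2 scale (edgeR adjusted p = 0.684).

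Pou3f3, the class III factor known from brain and kidney, lies at chr1:42695768-42703176 on the plus strand and was detected mainly in Quiescent. It had 5, 3 and 0 fragments in UVB and 0, 0 and 0 in Active, against 23, 12 and 7 in Quiescent. Each Quiescent library thus held more Pou3f3 fragments than any other library, and the scaled levels did not overlap either. The 0 fragments in Active allow a level of up to 0.0357 CPM over the group (3 fragments, counting error only). At that limit Active was 19.9-fold lower than Quiescent, whose pooled 0.708 CPM was taken as counted. Without Active replicate 1 that fold was 12.3. UVB was 8.02-fold lower than Quiescent in pooled fragments, with a counting interval of 3.72 to 19.8 (95%, no library spread). When genes were tested with no filter, the edgeR adjusted p was 0.0447 for UVB against Quiescent, 0.00415 for Active against Quiescent and 0.112 for UVB against Active. Pou3f3 passed the filter in some fits with 1 library left out. It did not pass without Quiescent replicate 1 or 2, so its entry rested on the libraries where it was highest. Among the fits that it entered, UVB against Quiescent missed the threshold without UVB replicate 2 (edgeR adjusted p = 0.0816). Without UVB replicate 1 it was near the threshold (0.0482). The deposited annotation is not named, and GENCODE places a second transcript on the same strand over Pou3f3, so fragments of that transcript may be among these counts.

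**Figure D3:**
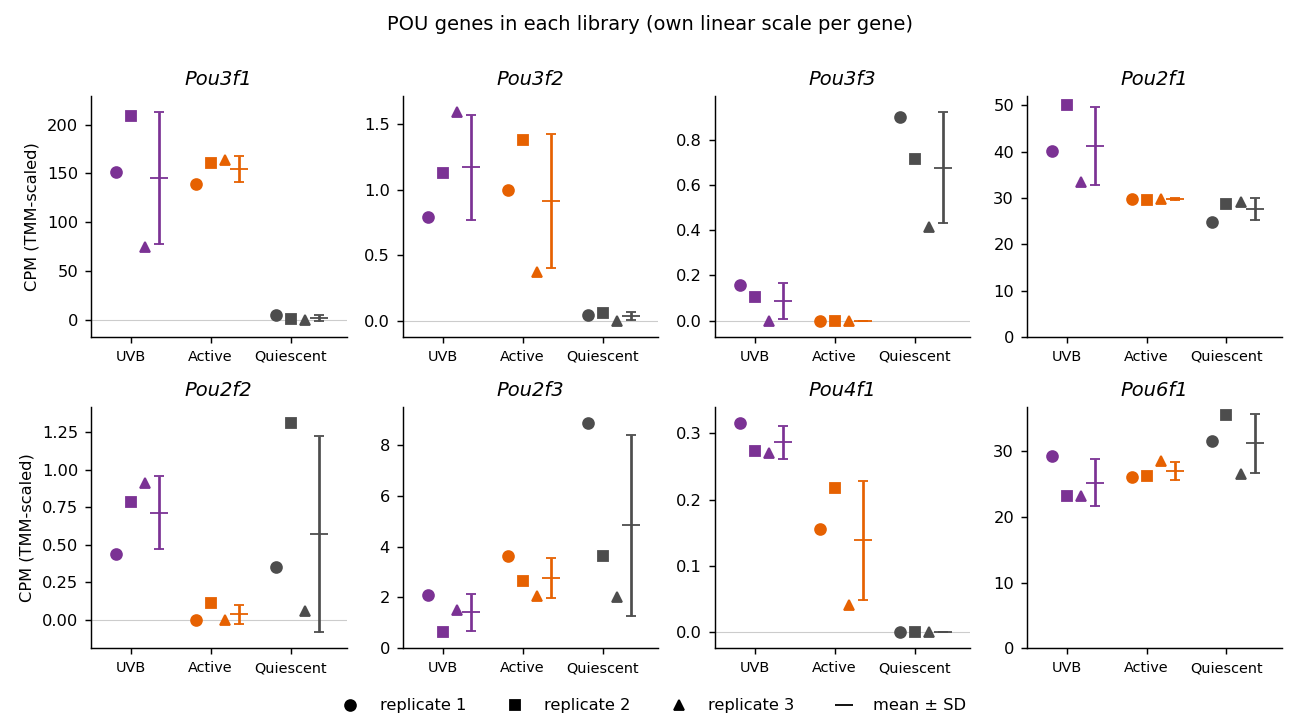
CPM of each POU gene in each library, on a linear scale of its own for each gene, with replicates 1 to 3 as circles, squares and triangles and the group mean ± SD to their right. Pou3f1, Pou3f2 and Pou4f1 are near or at 0 in Quiescent, Pou3f3 is highest there, and Pou6f1 spans 23.2 to 35.5 CPM over all 9 libraries.

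SOX factors bind DNA next to POU factors at many enhancers, with SOX10 and POU3F factors described together in Schwann cells and SOX2 with POU3F2 in neural progenitors. Of 9 SOX genes, 5 were higher and 0 lower in UVB against Quiescent. In Active against Quiescent 6 were higher and 0 lower, and 0 passed in UVB against Active. Over all tested genes, 49%, 58.3% and 24% passed in these comparisons. Sox10 stood at 528, 581 and 312 CPM in UVB and at 551, 561 and 661 CPM in Active, against the Quiescent values given above. Sox10 was higher by 7.72 ± 0.70 SE in UVB and by 8.04 ± 0.71 SE in Active, both on the log2 scale against Quiescent (edgeR adjusted p = 6.18e-05 and 2.78e-05). Sox2 averaged above Quiescent by 7.63 ± 0.47 SE in UVB and by 7.13 ± 0.47 SE in Active (log2, edgeR adjusted p = 1.1e-05 and 8.39e-06), and Sox6 by 4.79 and 5.08. Within each of the 3 groups the order of the libraries by Pou3f1 was the same as their order by Sox10, down to UVB replicate 3, which was lowest in both, and Quiescent replicate 1, which was highest in its group in both. The order of the libraries by Pou3f2 differed from that by Sox10 in each of the 3 groups. By the summed level of 13 keratinocyte genes, given further on, the order matched that by Pou3f1 in Quiescent but not in UVB or Active. Quiescent replicate 1 was the highest of its group in that sum too. The parts of Sox10-positive cells and of keratinocytes in the Pou3f1 values were not tested.

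Among 14 genes of promyelinating and myelinating Schwann cells, 7 were higher and 3 lower in UVB against Quiescent. In Active against Quiescent 7 were higher and 4 lower, and 1 was higher in UVB against Active. The shares of all tested genes that passed in these comparisons were 49%, 58.3% and 24%. The higher genes included Cdh19, a cadherin of Schwann cell precursors, Erbb3, the neuregulin receptor, and Ngfr, a neurotrophin receptor, each higher by between 5.96 and 7.28 on the log2 scale in both comparisons with Quiescent. Egr2, a regulator of myelin genes, did not pass in any comparison and stood at 79.6, 28.7 and 64.7 CPM in UVB, 12.7, 9.97 and 48.6 CPM in Active and 21.7, 27.5 and 11.8 CPM in Quiescent. Egr2 was named after its values were seen.

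Most melanocyte genes differed between UVB and Active. Of 12 melanocyte markers, 10 were lower and 0 higher in UVB against Active, where 24% of all tested genes passed. Against Quiescent, 9 were higher in UVB (49% of all tested genes passed) and 11 were higher in Active (58.3%). Tyr, the enzyme that starts melanin synthesis, stood at 28.6, 21.3 and 36.4 CPM in UVB against 677, 387 and 359 CPM in Active, and at 1.45, 2.44 and 2.18 CPM in Quiescent. Mitf stood at 23.8, 20 and 38.1 CPM in UVB against 379, 132 and 119 CPM in Active, with 47.3, 53.8 and 64.0 CPM in Quiescent. Its log2 fold change was -2.94 ± 0.47 SE for UVB against Active (edgeR adjusted p = 0.00407). The UVB libraries thus held less Mitf and Tyr than the Active libraries, and whether Pou3f1 had a part in this was not tested.

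Of 8 genes linked to Pou3f2 in melanocytic cells, 4 were higher and 0 lower in UVB against Quiescent. In Active against Quiescent 5 were higher and 2 lower, and in UVB against Active 2 were higher and 2 lower. Beside these counts, 49%, 58.3% and 24% of all tested genes passed. Ezh2, a histone methyltransferase, was higher than in Quiescent by 2.75 ± 0.23 SE in UVB and 2.83 ± 0.23 SE in Active (log2, edgeR adjusted p = 4.17e-05 and 1.79e-05). Notch1, a receptor of cell contact signalling, was higher by 3.03 and 2.59. Pax3, a neural crest factor, stood at 44.2, 41.7 and 33.6 CPM in UVB against 136, 82.9 and 108 CPM in Active, and at 1.09, 1.37 and 0 CPM in Quiescent. Pax3 was lower in UVB than in Active (log2 fold change -1.45 ± 0.45 SE, edgeR adjusted p = 0.0474). Kitl, the ligand of KIT, and Nfib were higher in UVB than in Active by 0.97 and 0.69 (edgeR adjusted p = 0.00868 and 0.0364). Dll1, Kitl and Nfib averaged lower in Active than in Quiescent, at 2.9, 26.9 and 106 CPM against 7.34, 38.6 and 150 CPM. The 2 genes called lower there were among them.

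**Figure D4:**
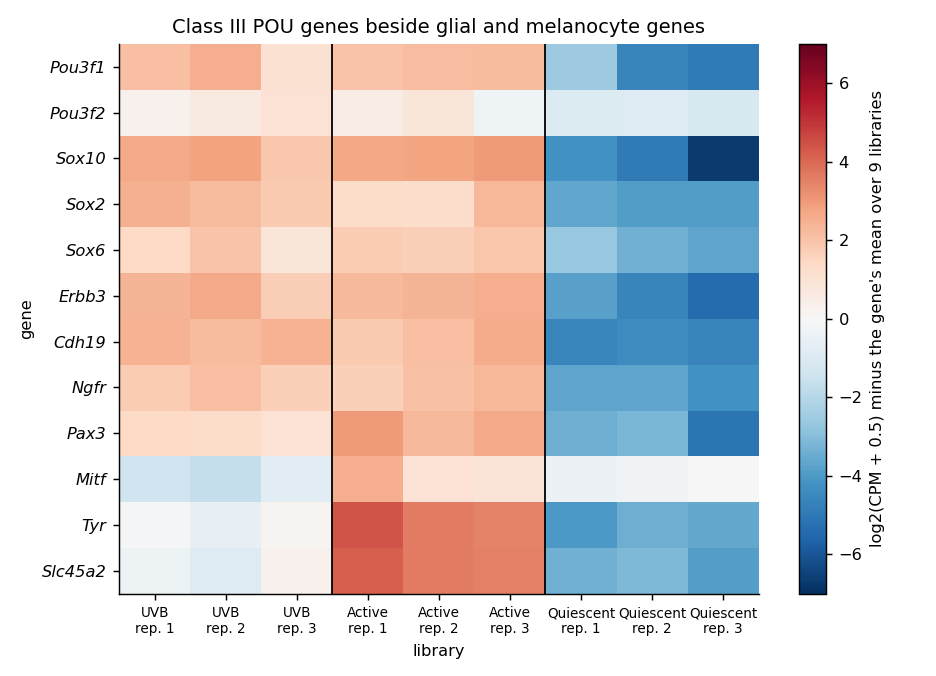
Log2(CPM + 0.5) of Pou3f1, Pou3f2 and 10 SOX, glial and melanocyte genes in each library, shown in colour as the difference from the gene's mean over the 9 libraries. Pou3f1, Sox10, Erbb3, Cdh19 and Ngfr are alike in the UVB and Active columns and low in Quiescent, while Mitf, Tyr and Slc45a2 are highest in Active.

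The genes whose pattern over the 9 libraries was nearest to Pou3f1, by the root mean square difference of centred log2(CPM + 0.5), were Tnc at 0.26, Kcnn4 at 0.47 and Erbb3 at 0.53. Tnc, which encodes the matrix protein tenascin C, averaged 1347 CPM in UVB, 1568 CPM in Active and 22.1 CPM in Quiescent. Kcnn4, a calcium-gated potassium channel, averaged 106, 110 and 1.04 CPM in the same groups, and Erbb3 followed the library order of Pou3f1 within each group. For Pou3f2 the nearest were Polr3g at 0.25, Zdhhc15 at 0.26 and Fblim1 at 0.29, but Pou3f2 is so scarce that the added 0.5 CPM flattens its pattern. With 2 CPM added, 0 of these 3 and 1 of the 3 of Pou3f1 (Kcnn4) were again among the nearest.

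Pou2f1, the widely expressed class II factor, was higher in the UVB libraries than in either other group. It stood at 40.1, 50.1 and 33.5 CPM in UVB and at 29.9, 29.6 and 29.8 CPM in Active, against 24.9, 28.7 and 29.2 CPM in Quiescent. The 3 groups did not overlap, although Active and Quiescent were close. Pou2f1 was 1.49-fold higher in UVB than in Quiescent (log2 fold change 0.58 ± 0.15 SE, edgeR adjusted p = 0.0117), and UVB and Active were separated by 0.47 ± 0.15 SE at an edgeR adjusted p of 0.0499, next to the threshold. Leaving out any 1 library other than UVB replicate 3 took that second call away, with adjusted p from 0.0531 to 0.15. Active and Quiescent differed by 0.11 ± 0.15 SE (edgeR adjusted p = 0.559). With library totals alone as the scale, which moved the median of all genes to 0.757, the difference was 0.86 (edgeR adjusted p = 0.00087) and close to that median.

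Pou2f1 lies at chr1:165865154-166002678 on the minus strand, and its exons meet Cd247, which encodes the zeta chain of the T cell receptor complex, on the opposite strand. Cd247 had 95, 63 and 60 fragments in UVB, 9, 5 and 8 in Active and 10, 9 and 2 in Quiescent. No source used here states whether the counting kept the strands apart, so whether fragments of Cd247 are among those of Pou2f1 was not tested. Pou2f1 itself had 1272, 1464 and 991 fragments in UVB. On the CPM scale Cd247 stood at 2.99, 2.16 and 2.03 in UVB and at 0.28, 0.181 and 0.327 in Active. In Quiescent it stood at 0.391, 0.536 and 0.118 CPM. The patterns nearest to Pou2f1 were those of Birc6 at 0.06, Kat6a at 0.08 and Mtmr12 at 0.09, all 3 with their highest mean in UVB.

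Pou2f1 also works with the SNAPc complex at genes of small nuclear RNAs, and POU2F factors use coactivators of the POU2AF family. Of 7 tested genes of this list, 1 was higher and 3 lower in UVB against Quiescent. In Active against Quiescent 3 were higher and 1 lower, and 3 were lower in UVB against Active. Over all tested genes, 49%, 58.3% and 24% passed in these comparisons. Snapc1, a SNAPc subunit, stood at 7.22, 8.05 and 7.97 CPM in UVB against 15.8, 12.8 and 12.1 CPM in Active, with 8.99, 9.71 and 11 CPM in Quiescent (log2 fold change of UVB against Active -0.81 ± 0.16 SE, edgeR adjusted p = 0.0103). Of the 3 lower in UVB against Quiescent, Snapc3 and Snapc5 turned direction with library totals alone as the scale. Snapc4 was higher in UVB than in Quiescent by 0.70 ± 0.13 SE (edgeR adjusted p = 0.00249). Pou2af1, the B cell coactivator, stood at or under 0.195 CPM in every library. Another gene of the list, Colca2, listed under the older name Gm684, was called lower than in Quiescent in both UVB and Active. Colca2 stood at 2.77, 1.68 and 2.23 CPM in UVB and at 1.9, 2.1 and 2.7 CPM in Active, against 6.84, 2.74 and 5.67 CPM in Quiescent.

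Pou2f2, at chr7:25087344-25179726 on the minus strand, was rare, and its level ran with that of the myeloid markers. It had 14, 23 and 27 fragments in UVB, 0, 3 and 0 in Active, and 9, 22 and 1 in Quiescent. UVB lay above Active without overlap, while the Quiescent libraries reached from 0.0591 to 1.31 CPM and spanned both. Pou2f2 was 17.6-fold higher in UVB than in Active (log2 fold change 4.14 ± 1.24 SE, edgeR adjusted p = 0.0411) and 14-fold lower in Active than in Quiescent (-3.81 ± 1.27 SE, edgeR adjusted p = 0.0289). UVB and Quiescent differed by 0.33 ± 0.94 SE (edgeR adjusted p = 0.795). The first call was lost without any 1 UVB or Active library or without Quiescent replicate 1 (adjusted p 0.0536 to 0.127). The second was lost without Active replicate 1 (9.24-fold lower, adjusted p 0.0886), Active replicate 3 (9.99-fold lower, adjusted p 0.0808) or Quiescent replicate 2 (5.53-fold lower, adjusted p 0.127). Without Active replicate 2 no Active fragment remained. At a limit of 3 fragments over the group, Active was 10.2-fold lower than Quiescent and UVB 13.3-fold higher than Active. The Quiescent and UVB fragments were taken as counted there.

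The summed level of 10 myeloid markers was 744, 761 and 1478 CPM in UVB, 91.4, 95 and 37.9 CPM in Active, and 305, 2183 and 170 CPM in Quiescent. Quiescent replicate 2, the highest library of all in this sum, was also the highest in Pou2f2. Within UVB and within Quiescent the order of the libraries was the same by both measures, and in Active the only library with Pou2f2 fragments was the one with the highest sum. Of the 10 markers, 9 were higher in UVB than in Active, where 24% of all tested genes passed. Against Quiescent, 6 were lower in Active (58.3% of all tested genes passed) and 2 were higher in UVB (49%). Csf1r, the receptor of a macrophage growth factor, stood at 121, 121 and 227 CPM in UVB, 10.4, 11 and 3.35 CPM in Active, and 122, 529 and 99.3 CPM in Quiescent. Of the B cell genes, Pax5 was at 0 in all 9 libraries and Ms4a1 at or under 0.109 CPM, while 3 others had enough fragments to be tested. Of those 3, 1 was higher in UVB than in Quiescent, 1 was higher and 1 lower in Active against Quiescent, and 2 were higher in UVB than in Active. Spib, a transcription factor of B cells and plasmacytoid dendritic cells, stood at 1.13, 0.651 and 0.844 CPM in UVB and at 0.0312, 0.0363 and 0.0409 CPM in Active, against 0.274, 0.834 and 0.0591 CPM in Quiescent. It was higher in UVB than in Active by 4.44 ± 0.88 SE and lower in Active than in Quiescent, at -3.26 ± 0.93 SE (log2 fold changes, edgeR adjusted p = 0.00931 and 0.0145), with the second call lost without Active replicate 1 (adjusted p = 0.0503) or Quiescent replicate 2 (adjusted p = 0.0533, log2 fold change -2.17). Blk, a kinase of the B cell receptor pathway, stood at 1.07, 0.582 and 1.25 CPM in UVB and at 0.125, 0.0363 and 0.0818 CPM in Active, against 0 in each Quiescent library, and passed the test in all 3 comparisons (edgeR adjusted p at most 0.0319). The Blk call of Active against Quiescent was lost without Active replicate 1 or 3, UVB replicate 1 or any 1 Quiescent library (edgeR adjusted p = 0.0533 to 0.0803), and that of UVB against Active without Active replicate 2 (adjusted p = 0.0508). Cd79b, a part of the B cell receptor, passed in none of them and stood at 0.788, 0.651 and 1.11 CPM in UVB, 0.0935, 0.29 and 0 CPM in Active, and 0.0391, 1.37 and 0.0591 CPM in Quiescent. Markers of other cell types also separated UVB from Active: 8 of 8 T cell markers and 6 of 6 endothelial markers were higher in UVB. Their sums were 216 to 331 and 178 to 279 CPM in UVB, and 22.3 to 28.4 and 18.7 to 24 CPM in Active. In Quiescent the sums were 335 to 488 and 335 to 473 CPM. The parts of myeloid cells, of B cells and of these cell types in the Pou2f2 counts were not tested. Its nearest patterns were those of Daglb at 0.23, Lifr at 0.25 and Nrp2 at 0.28, none of which was again among the nearest 3 with 2 CPM added.

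**Figure D5:**
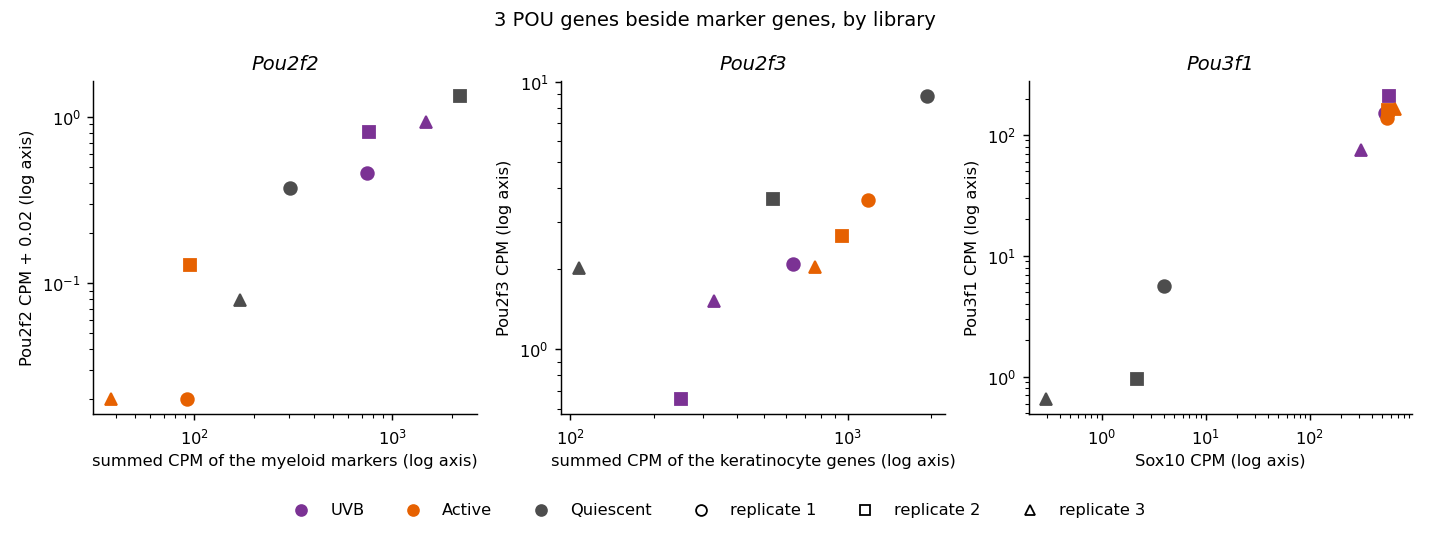
Each point is 1 library, coloured by group, with the CPM of Pou2f2 (plus 0.02), Pou2f3 or Pou3f1 on a log axis against the summed CPM of 10 myeloid markers, of 13 keratinocyte genes, or the CPM of Sox10, also on log axes. Quiescent replicate 2 is highest for Pou2f2 and the myeloid sum, Quiescent replicate 1 is highest for Pou2f3 and the keratinocyte sum, and the 3 Quiescent libraries stand apart for Pou3f1 and Sox10.

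Pou2f3, the epidermal and tuft cell factor, lies at chr9:43123939-43210369 on the minus strand and was lowest in UVB and most variable in Quiescent. It stood at 2.08, 0.651 and 1.52 CPM in UVB and at 3.62, 2.65 and 2.04 CPM in Active, against 8.84, 3.64 and 2.01 CPM in Quiescent. Quiescent replicate 1 was far above the other 8 libraries, and UVB and Quiescent overlapped by UVB replicate 1 and Quiescent replicate 3. Pou2f3 was 3.41-fold lower in UVB than in Quiescent (log2 fold change -1.77 ± 0.60 SE, edgeR adjusted p = 0.0362). Without Quiescent replicate 1 it was 1.99-fold lower (edgeR adjusted p = 0.165). The call was also lost without UVB replicate 2 (adjusted p 0.102), UVB replicate 3 (0.0699) or Active replicate 2 (0.0539), and with a fit of these groups alone (0.0662). Active differed from Quiescent by -0.81 ± 0.58 SE (edgeR adjusted p = 0.26), and UVB from Active by -0.96 ± 0.59 SE (edgeR adjusted p = 0.268).

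The summed level of 13 keratinocyte genes was 632, 250 and 330 CPM in UVB, 1181, 954 and 762 CPM in Active, and 1934, 538 and 107 CPM in Quiescent. Within each of the 3 groups the order of the libraries by Pou2f3 was the same as by this sum, although Quiescent replicate 3, the lowest of all in keratinocyte genes, held about as much Pou2f3 as Active replicate 3 and UVB replicate 1. Krt10, a keratin of the upper epidermis, stood at 110, 30.9 and 15.0 CPM in UVB and at 232, 267 and 143 CPM in Active, against 850, 204 and 46.3 CPM in Quiescent. Of the 13 genes, Krt10 alone was lower in UVB than in Quiescent (log2 fold change -2.82 ± 1.03 SE, edgeR adjusted p = 0.0484). A further 2 were higher in Active than in Quiescent, and 2 were lower in UVB than in Active. The shares of all tested genes that passed in these comparisons were 49%, 58.3% and 24%. The part of keratinocytes in the Pou2f3 values was not tested.

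Of 6 tested tuft cell genes, 2 were higher and 1 lower in UVB against Quiescent, where 49% of all tested genes passed. In Active against Quiescent 2 were higher and 2 lower (58.3% of all tested genes passed). In UVB against Active 2 were higher (24%). Dclk1, a kinase used as a tuft cell marker and the gene that was lower in UVB than in Quiescent except with library totals alone as the scale, stood at 66.1, 87.5 and 97.3 CPM in UVB and at 73.3, 57.3 and 41.4 CPM in Active, against 125, 147 and 122 CPM in Quiescent. Trpm5, the ion channel that defines tuft cells, stood at or under 0.0945 CPM in every library. The genes that were higher in UVB than in Quiescent were Il25, a cytokine gene, and Avil, an actin-binding protein gene (edgeR adjusted p = 0.000964 and 0.0473). Il25 stood at 0.536, 0.788 and 0.844 CPM in UVB and at 0.28, 0.58 and 0.409 CPM in Active, against 0 in each Quiescent library. Avil stood at 3.56, 1.54 and 1.22 CPM in UVB, 0.654, 0.471 and 0.368 CPM in Active, and 0.743, 0.477 and 1.12 CPM in Quiescent, and was also higher in UVB than in Active (log2 fold change 2.06 ± 0.53 SE, edgeR adjusted p = 0.0241). Both Avil calls were lost without UVB replicate 1, its highest library (edgeR adjusted p = 0.22 against Quiescent and 0.0897 against Active), and without any 1 Active library (adjusted p = 0.0565 to 0.0901). The Avil call against Quiescent was also lost without UVB replicate 2 or Quiescent replicate 1 or 2, with RLE size factors, no filter, only the 2 groups compared or the replicate block (edgeR adjusted p = 0.0508 to 0.126). The part of tuft cells in the Pou2f3 values was not tested. The patterns nearest to Pou2f3 were those of Bmf at 0.33, Rapgefl1 at 0.38 and Sh3yl1 at 0.39, and only Rapgefl1 was again among the nearest with 2 CPM added.

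Pou4f1, the sensory neuron factor, lies at chr14:104461676-104467999 on the minus strand and was found at a few fragments in all 6 UVB and Active libraries and in no Quiescent library. It had 10, 8 and 8 fragments in UVB and 5, 6 and 1 in Active, against 0, 0 and 0 in Quiescent. The 0 in Quiescent allows up to 0.0506 CPM over the group (3 fragments, counting error only). At that limit UVB was 5.68-fold and Active 2.82-fold higher than Quiescent, with the UVB and Active fragments taken as counted. The counting error of those few fragments is left out, so these folds are not lower bounds. Without Quiescent replicate 1 they were 3.23-fold for UVB and 1.6-fold for Active. UVB held 2.01 times the pooled level of Active, with a counting interval of 0.98 to 4.38 (95%). Tested with no filter, the edgeR adjusted p was 0.00937 for UVB against Quiescent, 0.0216 for Active against Quiescent and 0.418 for UVB against Active.

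Of 18 genes downstream of Pou4f1 or expressed with it in sensory neurons, 8 had enough fragments to be tested. Of these, 4 were higher and 2 lower in UVB against Quiescent, where 49% of all tested genes passed. In Active against Quiescent 3 were higher and 4 lower (58.3% of all tested genes passed). In UVB against Active 3 were higher (24%). Neurog1, Neurod1 and Prrxl1, which define sensory neurons and their precursors, were at 0 in all 9 libraries, and Isl1, the usual partner of POU4F1, was at 0 in all UVB and Active libraries. Calca, which encodes a neuropeptide, was at 0 in Quiescent and stood at 0.347, 0.479 and 0.236 CPM in UVB and 0.841, 0.762 and 1.10 CPM in Active. Ret, a receptor of neurotrophic factors, was lower than in Quiescent by 2.41 on the log2 scale in UVB and 3.08 in Active (edgeR adjusted p = 0.00119 and 0.000237).

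Pou6f1, at chr15:100575318-100599984 on the minus strand, did not pass in any of the 3 comparisons. It stood at 29.3, 23.2 and 23.2 CPM in UVB and at 26.1, 26.3 and 28.6 CPM in Active, against 31.5, 35.5 and 26.6 CPM in Quiescent. The groups overlapped in all 3 comparisons. The log2 fold changes were -0.30 ± 0.14 SE for UVB against Quiescent, -0.21 ± 0.14 SE for Active against Quiescent and -0.10 ± 0.14 SE for UVB against Active (edgeR adjusted p = 0.112, 0.244 and 0.668). The direction against Quiescent turned with library totals alone as the scale, where the values were 0.41 for UVB and 0.53 for Active, each below the shift of all genes on that scale (0.742 and 0.757). The nearest patterns were those of Bcl7b at 0.08, Tpra1 at 0.09 and Pdzd7 at 0.09, and the same 3 genes were nearest with 2 CPM added.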

How the data were processed

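Libraries were made from poly(A) RNA with a directional kit, per the labels' protocols. Reads had been trimmed and aligned by the authors before deposit: the submitters' processing notes list cutadapt 1.8, TopHat2 2.0.13 and Cuffdiff 2.2.1 with build mm10, and give no settings. The deposited table is a Cuffdiff read group table, per the file headers. It holds the authors' estimated counts of fragments per gene, unscaled, and the authors' FPKM, scaled between libraries. Of 210249 counts, 2261 were not whole to within 1e-06. Totals of 21045070 to 35131778 fragments set the counting precision, and limits for a group at 0 (3 fragments over the group) cover only the counting error of that group.

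Rounded estimated counts were fitted in edgeR 4.0.16 (R 4.3.3) by quasi-likelihood with TMM factors, a mean per group and all 9 libraries at once. Tests were two-sided F tests with Benjamini-Hochberg adjustment over the 15078 of 23361 genes that passed the filter, at a threshold of 0.05. The standard error is the log2 fold change divided by the square root of F, and approximate intervals use the normal distribution. TMM factors ran from 0.660 to 0.748 for Quiescent libraries and from 1.163 to 1.225 for the rest. Positions come from GENCODE on GRCm38, which is mm10, and upstream windows from RefSeq. The fits were tested on simulated counts. Alternatives were other scalings, DESeq2 1.42.0, limma 3.58.1 on log2(FPKM + 1) and log2(FPKM + 0.1), other filters, fits of 2 groups, a replicate block and each library left out.

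The 8 genes and the gene lists were chosen with earlier results of these data known, so counts over lists are descriptions. Named were all 8 POU genes, up to 4 members of a list with the smallest adjusted p in a comparison (or 2 of the most abundant where none passed), and the 3 genes nearest in pattern to each tested POU gene among genes with a mean log2 CPM of at least 2, predicted genes left out. The text names a part of these, and list members given at or near 0 or without a call were added after their values were seen.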

Additional observations from a re-analysis of the deposited data

How the results depend on the processing

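Under every alternative run, Pou3f1 and Pou3f2 stayed higher in UVB and in Active than in Quiescent, and the only call lost among these was Pou3f2 in Active against Quiescent with limma on log2(FPKM + 1) and a filter (0.19, adjusted p 0.0851), a scale that understates low genes. Counts of genes past the threshold moved by over 1.5 times with library totals alone as the scale, to 8746 higher and 1246 lower in UVB against Quiescent and 8651 higher and 2206 lower in Active against Quiescent, beside 3895 and 3498, and 4390 and 4396, with TMM. When each library was left out, UVB against Active gave 999 to 2548 higher and 453 to 1678 lower genes, and the counts moved by over 1.5 times without Active replicate 1, Active replicate 2 or UVB replicate 1. With library totals alone, the log2 fold changes were 0.86 for Pou2f1 (adjusted p 0.00087), -3.13 for Pou2f2 (0.057) and 0.53 for Pou6f1 (0.0164) in Active against Quiescent, -1.08 for Pou2f3 (0.148) and 0.41 for Pou6f1 (0.0516) in UVB against Quiescent, and 0.44 for Pou2f1 (0.0636) in UVB against Active. On that scale Snapc5, Snapc3 and Dclk1 also turned direction in UVB against Quiescent, at 0.14, 0.26 and 0.07, the only 3 of 2396 alternatives to 151 calls on list genes to do so, while 199 missed the threshold.

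In UVB against Active, Pou2f1 also missed the threshold with RLE factors (0.47), upper quartile scaling (0.45), no filter (0.46), limma with 1 FPKM added (0.32, with and without a filter) or 0.1 FPKM added (0.42), and the 2 groups alone (0.49), with adjusted p from 0.0532 to 0.182, and each library left out gave 0.30 to 0.60. Pou2f2 missed it in UVB against Active with limma (0.27 with 1 FPKM added, with and without a filter, and 1.52 with 0.1 FPKM), as it did in Active against Quiescent (-0.21, -0.21 and -1.08). With each library left out, Pou2f2 gave 3.54 to 7.21 in UVB against Active, -6.88 to -2.47 in Active against Quiescent and -0.18 to 1.68 in UVB against Quiescent, where the ends at 7.21 and -6.88 have no Active fragment left and are no bounds. In UVB against Quiescent, Pou2f1 missed the threshold with limma and 0.1 FPKM added (0.52, adjusted p 0.0505) and with 1 FPKM and no filter (0.39, 0.0671), and Pou2f3 with limma (-0.83, with and without a filter) and the 2 groups alone (-1.77). With each library left out, Pou2f3 gave -2.15 to -0.99 and Pou6f1 -0.42 to -0.20 there, with Pou6f1 called without Quiescent replicate 3 (adjusted p 0.0455). Leave-one-out values of UVB against Active ran from -0.45 to 0.22 for Pou3f1, positive without UVB replicate 3, and from -0.06 to 0.75 for Pou3f2, negative without Active replicate 3. Where no cause is given, the cause was not tested.

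Libraries of different groups shared only their replicate numbers: the correlations of same-numbered libraries ran from -0.171 to 0.231. With the replicate block the counts were 3580 higher and 3229 lower in UVB against Quiescent, 4135 and 4088 in Active against Quiescent, and 1826 and 1004 in UVB against Active, and the POU calls held except Pou2f1 in UVB against Active (0.46, adjusted p 0.0781). Using TPM in place of FPKM left the order of the 8 genes as it was in each group. Depth limits Pou2f2, Pou3f2, Pou3f3 and Pou4f1, which had at most 47 fragments in any library.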

Other observations

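Other POU genes of the table had too few fragments to be tested. Pou1f1, the pituitary factor, had 0 fragments in all 9 libraries, and Pou3f4, the remaining class III gene, had 0, 3 and 1 fragments in UVB and 0 elsewhere. Pou4f2, a factor of retinal ganglion cells, had 1, 0 and 1 fragments in UVB and 5, 2 and 6 in Active, against 0 in Quiescent. Pou5f1, the pluripotency factor OCT4, had at most 3 fragments in any library. Pou5f2 had 0, 5 and 5 fragments in UVB and 2, 0 and 1 in Active, against 1, 11 and 10 in Quiescent.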
